A study of Mus musculus with 4 samples.

Results

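The genes described here encode the subunits of the proteasome and the factors that activate, inhibit or assemble it. They were taken from the deposited table by symbol, as every gene named Psma, Psmb, Psmc, Psmd, Psme, Psmf or Psmg with a number, leaving out Psmb8 and Psmb9. This gave 46 of the 32592 genes in the table: 17 of the core particle, 17 of the cap, and 12 activators, inhibitors and assembly factors. Poly(A) RNA was sequenced from CCE cells, a 129/Sv mouse embryonic stem cell line grown without feeder cells in medium with serum and leukemia inhibitory factor. The comparison is of 2 libraries labelled eIF4A2 shRNA (knockdown) with 2 labelled control shRNA. Every culture was infected with a short hairpin RNA, selected for 3 days in 1 µg/mL puromycin and collected on day 4.5. The protocol names sheIF4A2-2 and sheIF4A2-3 against Eif4a2 and shLuc and shEV as controls, and the labels do not say which library received which. Whether the 2 libraries of a group are separate cultures is not stated, and p-values therefore describe the spread between the libraries alone, which may be technical.

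The proteasome degrades proteins that carry ubiquitin chains. Its core particle is a barrel of stacked rings, in which alpha subunits form the gate and beta subunits line the chamber and hold the proteolytic sites. The cap binds ubiquitin, removes it and unfolds the substrate with a ring of ATPases, and other activators can take its place. Dedicated chaperones assemble the rings and the cap. Mammalian cells that lose proteasome activity raise the transcription of its subunit genes together through the factor NRF1 (Nfe2l1), which binds antioxidant response elements. Embryonic stem cells are known for high proteasome activity.

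Levels are normalized counts, that is, the authors' CPM on an effective library size. The libraries held 4604200 (control 2) to 13681765 (control 1) recovered reads. Each change is the knockdown-labelled mean minus the control-labelled mean, on the scale of log2(normalized count + 1), and a gene is said to have risen or fallen where the Benjamini-Hochberg adjusted p of limma over all 14890 genes tested was below 0.05. Of those genes, 23.0% were called in either direction. The targeted gene went against its label. Eif4a2 stood at 752.5 and 814 in the pair labelled knockdown, above both libraries labelled control, which held 530.6 and 379 (log2 change 0.80, SE 0.15, limma adjusted p = 0.014; 0.0581 without a variance trend), so no direction below is that of a measured loss of Eif4a2. The labelled cell type was checked on its markers. The 10 embryonic stem cell markers summed to between 9196 and 12599 normalized counts per library, higher in both control libraries, and 4 of them fell. Fibroblast markers summed to 39.7 and 40.1 in knockdown and 24.3 and 19.7 in control (2 of 4 tested rose; Dcn and Lum at 0 reads), trophectoderm markers to 50.9 and 54.4 against 40.4 and 37.1 (1 of 5 tested rose; Elf5 at 0 reads), primitive endoderm markers to 34.3 to 42.3 (0 of 6 rose or fell in limma, 0 at an unadjusted p below 0.05) and leukocyte markers to 30.6 to 38.9 (1 of 3 tested rose and 1 fell). The part of these shifts in the changes below was not tested. In bulk RNA, fewer cells of a type and less RNA per cell cannot be told apart.

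Of the 46 members, 44 had enough reads to be tested, and 13 of these fell, 0 rose and 31 did not pass in limma. Over all genes tested, 12.4% fell and 10.5% rose, against 29.5% of the members that fell. The members that fell were the core subunits Psma1, Psma3, Psma8 and Psmb4, the cap subunits Psmc4, Psmc6, Psmd1, Psmd6, Psmd11 and Psmd14, and the assembly factors Psmg1, Psmg3 and Psmd5. The median log2 change was -0.18 over the members and -0.01 over all genes tested. The background holds many genes at low levels. Among genes with a mean of at least 10 normalized counts, 13 of 42 members fell (31.0%), against 17.3% of all such genes. The medians there were -0.18 and -0.065. Of the 44 members tested, 37 had a log2 change below 0 and 7 above, against 7625 and 7265 of the 14890 genes tested. Both knockdown libraries lay below both control libraries for 27 members and above them for 5, against 34.6% and 32.1% of all genes tested. For 0 members risen in limma, 1 had an unadjusted p below 0.05 in that direction (Psmf1), and edgeR's quasi-likelihood test and DESeq2 on the recovered reads called 0 higher. These tests called 14 and 8 members lower, against 13.8% and 8.41% of all genes.

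The count rested on which libraries entered the fit. Without knockdown 1 or knockdown 2, 1 and 0 members fell (4.39% and 2.65% of all genes), and without control 1 or control 2, 28 and 22 fell and 1 and 2 rose (26.5% and 24.4% of all genes fell). In each of these fits 1 group kept a lone library, assumed to vary as the pair of the other group does. The median absolute log2 difference between libraries was 0.198 in control and 0.0955 in knockdown. The median of the members was -0.24, -0.17, -0.26 and -0.17 in the same order. Control 2 was higher than control 1 for 32 of the 44 members (median log2 difference 0.08, against -0.02 over all genes tested), and knockdown 2 was lower than knockdown 1 for 31 (median -0.06, against -0.01). In the authors' deposited table, 10 members were lower and 0 higher at an adjusted p below 0.05, of which 9 are among the 13. Of all 32592 genes in that table, 5.61% were lower. Only 20934 of these genes had any reads, so that share is not over genes at levels like those of the members.

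**Figure D1:**
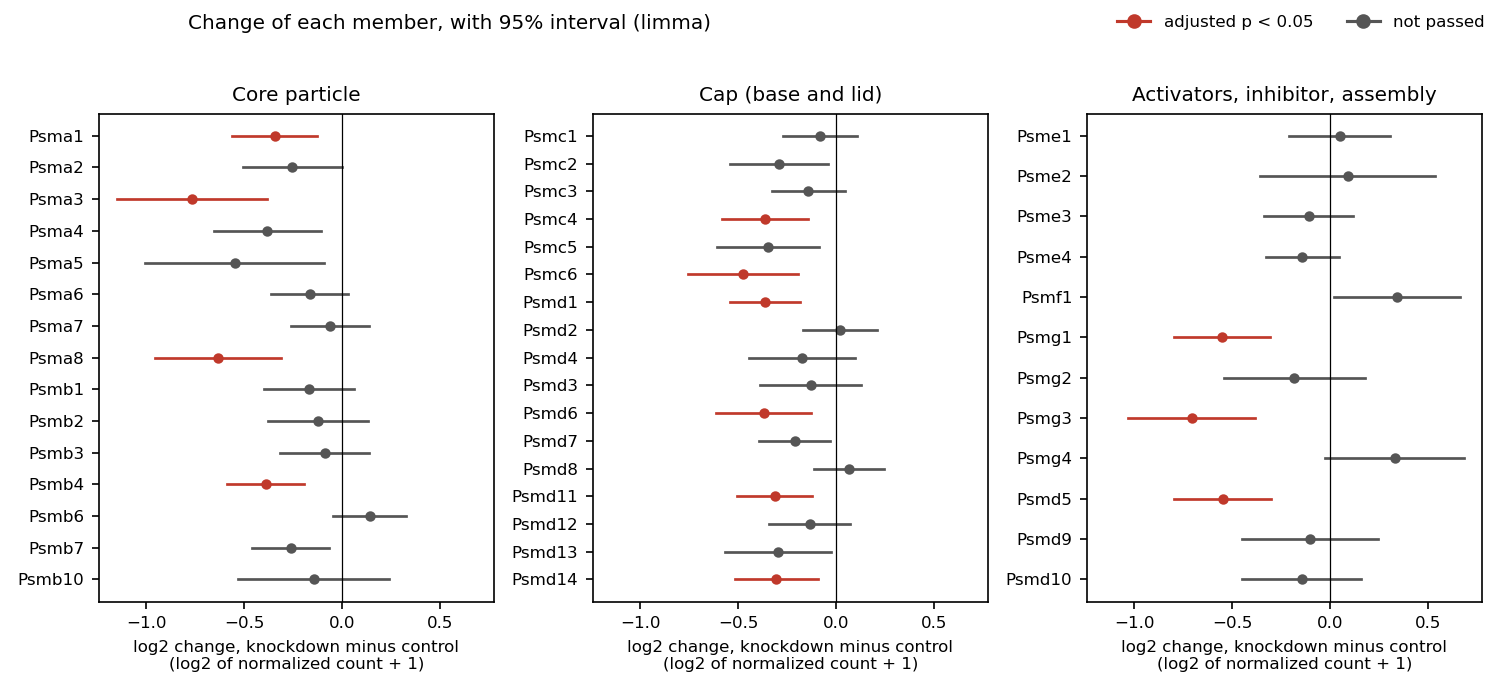
Log2 change of the 44 members tested (points) with the 95% interval of limma (lines), on the scale of log2(normalized count + 1), in 3 panels by part of the proteasome. Red marks the 13 members with an adjusted p below 0.05, and all of these lie to the left of 0.

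The changes were small beside the levels. The normalized counts of all members summed to 5139 and 4963 in the knockdown-labelled libraries and to 5569 and 5987 in the control-labelled ones. The knockdown mean was thus 12.6% below the control mean, with no overlap, while the sum of the whole table was 8.22% lower. The core summed to 1516 ± 69.3 in knockdown and 1726 ± 47.3 in control, the cap to 2646 ± 27.8 and 3048 ± 198, and the activators, inhibitor and assembly factors to 889 ± 27.9 and 1004 ± 50.8 (SD, n = 2 each). An exact permutation test of 2 against 2 libraries (two-sided) cannot go below p = 0.333, so no test of a sum is given.

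The upstream sequence of 5 members is shown because it bears on whether the members that fell share a binding motif with each other or with the rest. Each is the 250 bases before the transcription start in RefSeq (GRCm38.p6), 5′ to 3′ on the gene's own strand, with capitals for matches to TGACNNNGC (core of the antioxidant response element), CCAAT (the NF-Y box) or TGATGNAA (the element bound by ATF4 with C/EBP proteins), searched on both strands. Psma1 (chr7:114276117-114276366, minus strand), Psma3 (chr12:70974373-70974622, plus strand) and Psmd14 (chr2:61711444-61711693, plus strand) fell and hold the NF-Y box, Psmg1 (chr16:95990961-95991210, minus strand) had the smallest p and holds none of the 3, and Psmb6 (chr11:70525107-70525356, plus strand) did not pass and holds the antioxidant response element core.
Psma1: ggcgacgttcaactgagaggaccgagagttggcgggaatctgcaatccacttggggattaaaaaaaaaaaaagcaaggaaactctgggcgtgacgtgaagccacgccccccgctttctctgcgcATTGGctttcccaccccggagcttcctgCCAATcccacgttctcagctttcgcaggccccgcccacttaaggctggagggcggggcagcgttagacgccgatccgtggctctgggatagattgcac
Psma3: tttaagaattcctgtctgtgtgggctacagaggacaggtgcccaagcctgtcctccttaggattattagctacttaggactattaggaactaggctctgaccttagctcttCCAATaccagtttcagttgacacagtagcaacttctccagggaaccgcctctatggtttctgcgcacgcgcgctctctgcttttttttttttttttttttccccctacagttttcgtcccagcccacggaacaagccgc
Psmd14: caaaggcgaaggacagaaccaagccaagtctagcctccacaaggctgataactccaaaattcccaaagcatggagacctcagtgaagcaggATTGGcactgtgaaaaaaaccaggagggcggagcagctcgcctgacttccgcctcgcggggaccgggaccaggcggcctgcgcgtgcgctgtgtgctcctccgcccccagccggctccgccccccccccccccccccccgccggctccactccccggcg
Psmg1: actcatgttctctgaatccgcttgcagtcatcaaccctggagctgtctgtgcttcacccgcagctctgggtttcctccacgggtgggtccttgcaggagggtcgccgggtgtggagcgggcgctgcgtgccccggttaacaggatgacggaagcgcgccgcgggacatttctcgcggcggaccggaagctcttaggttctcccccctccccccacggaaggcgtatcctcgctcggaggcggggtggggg
Psmb6: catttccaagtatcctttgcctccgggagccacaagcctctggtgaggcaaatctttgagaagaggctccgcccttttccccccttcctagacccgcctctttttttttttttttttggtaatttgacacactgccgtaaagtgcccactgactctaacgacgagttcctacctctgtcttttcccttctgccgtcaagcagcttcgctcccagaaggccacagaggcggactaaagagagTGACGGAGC

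Promoter entries matched 38 of the 46 members; Psma8, Psmb1, Psmb2, Psmb7, Psmc3, Psmd3, Psmd7 and Psmg2 had none. The antioxidant response element core was found before 5 of the 38 (13.2%, against 10.1% of 27025 promoters of the same length), the NF-Y box before 13 (34.2%, against 34.5%) and TGATGNAA before 1 (2.63%, against 3.53%). These shares of the members are close to those of all promoters. Among the 12 members that fell and had an entry, the NF-Y box was found before 3 and the antioxidant response element core before 1, Psmc6. Among the 24 that did not pass, they were found before 9 and 3. In the sequences shown, the matches begin 126 and 98 bases before the start in Psma1, 139 in Psma3, 159 in Psmd14 and 9 in Psmb6, and no match overlaps another. A match is a string of letters, not a measured binding site.

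The alpha ring is made of 7 subunits, Psma1 to Psma7, which form the gate of the core. All 7 had a log2 change below 0 (median -0.34), and 2 fell. Of all 14890 genes tested, 7625 had a change below 0 and 12.4% fell. Psma1 (chr7:114264606-114276118 on GRCm38, minus strand) was at 50.5 and 49.2 normalized counts in the knockdown-labelled libraries, against 64 and 63.1 in the control-labelled ones (log2 change -0.34, SE 0.09, limma adjusted p = 0.0372). The libraries of each group lay close together there, and the groups did not overlap. Psma3 (chr12:70974621-70996347, plus strand) was at 11 and 11.9 against 18.2 and 22.4, the largest change of any member tested (log2 change -0.77, SE 0.16, limma adjusted p = 0.0194). It was also one of the lowest alpha transcripts, and its reads are uncertain for the reason given below.

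The other 5 alpha subunits did not pass. Psma4 was at 60.4 and 54.6 against 69 and 81.9 (log2 change -0.38, 95% interval -0.66 to -0.11, limma adjusted p = 0.0526), and it passed in edgeR (adjusted p = 0.0483). Psma2 was at 52.6 and 53.3 against 68.2 and 58.8 (limma adjusted p = 0.125), and Psma5 at 6.04 and 4.91 against 8.98 and 7.92 (limma adjusted p = 0.0802). The groups did not overlap for these 3 or for Psma6, which was at 233 and 211 against 248.2 and 249.4. Both knockdown libraries lay below both controls for 34.6% of all genes tested. Psma7 was at 229.7 and 209.2 against 223.7 and 233.8 (log2 change -0.06, interval -0.26 to 0.14), with overlapping groups; with library size as the only scaling its change was 0.062. Psma8 is the alpha subunit of germ cells, which replaces Psma7 in the core of the testis. It was at 17.8 and 15.7 against 27.4 and 25.6 and fell (log2 change -0.64, SE 0.14, limma adjusted p = 0.02). Per kilobase of transcript its mean level was 12.8 normalized counts, against 245.2 for Psma7.

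The beta ring is made of Psmb1 to Psmb7, of which Psmb5, Psmb6 and Psmb7 carry the proteolytic sites with chymotrypsin-like, caspase-like and trypsin-like specificity. Of the 4 without an active site, Psmb4 (chr3:94884093-94886961, minus strand) fell, from 302.6 and 328.3 normalized counts in control to 246.6 and 233.6 in knockdown (log2 change -0.39, SE 0.08, limma adjusted p = 0.0196). Psmb1 was at 139.7 and 125.4 against 157.7 and 140.5, without overlap but not passed (limma adjusted p = 0.245). Psmb2 (log2 change -0.12, interval -0.38 to 0.13) and Psmb3 (log2 change -0.09, interval -0.32 to 0.14) had overlapping groups; the change of Psmb2 without control 2 was 0.017 and that of Psmb3 under library size alone was 0.031. Neither tested catalytic subunit passed in limma, edgeR or DESeq2, and 1, Psmb7, had an unadjusted p below 0.05. Psmb7 was at 87.7 and 86 against 106.6 and 102.3 (log2 change -0.26, interval -0.46 to -0.07, limma adjusted p = 0.0604). Psmb6 pointed the other way, at 203 and 198.4 against 177 and 187.4 (log2 change 0.14, interval -0.05 to 0.32, limma adjusted p = 0.234). With library size as the only scaling, which moved the median of all genes by 0.11, Psmb6 rose (log2 change 0.26, limma adjusted p = 0.0443).

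Psmb5, a catalytic subunit, had almost no reads: 3 and 4 with the knockdown label and 1 and 0 with the control label. Psmb11, the catalytic subunit of thymus epithelium, had 0 and 1 reads against 0 and 0. Neither was tested, and neither exceeded the floor of 3 reads in every library of a group. Psmb10, which replaces Psmb7 in the immunoproteasome, was at 12.7 and 11.1 against 12.4 and 14, with overlapping groups (log2 change -0.15, interval -0.53 to 0.24, limma adjusted p = 0.551).

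**Figure D2:**
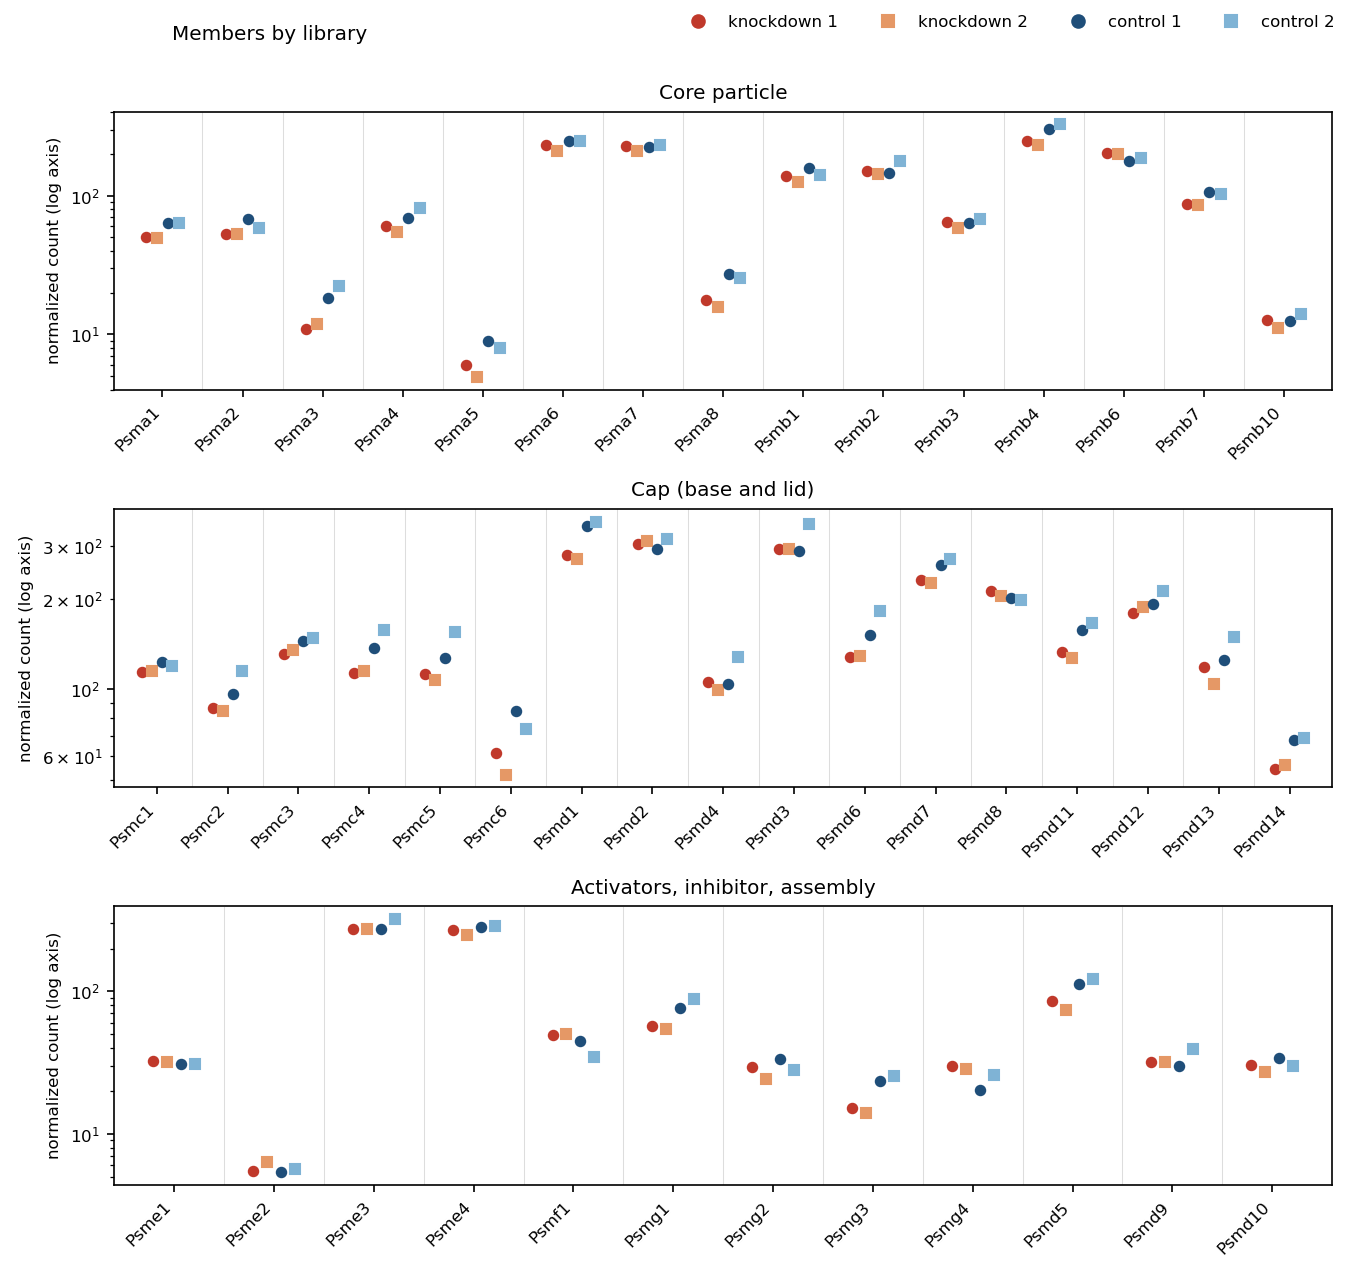
Normalized counts (log axis) of the 44 members tested in each of the 4 libraries, in 3 panels by part of the proteasome. The knockdown libraries (red and orange) lie below both control libraries (dark and light blue) for 27 members and above them for 5.

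The base of the cap holds a ring of 6 ATPases, Psmc1 to Psmc6, which unfold the substrate and open the gate. For all 6, both knockdown libraries lay below both control libraries, and 2 of the 6 fell (34.6% and 12.4% of all genes). Psmc6 (chr14:45329788-45349705, plus strand) was at 61.4 and 51.9 normalized counts against 84.4 and 74 (log2 change -0.48, SE 0.12, limma adjusted p = 0.0311). Psmc4 (chr7:28041707-28050101, minus strand) was at 113.4 and 115 against 137.6 and 157.7 (log2 change -0.36, SE 0.09, limma adjusted p = 0.0337). The knockdown libraries of Psmc4 were close together and its 2 control libraries were not. Psmc5 (112.9 and 107.7 against 127.2 and 155.5, limma adjusted p = 0.0613) and Psmc2 (86.7 and 84.8 against 96.2 and 115, limma adjusted p = 0.0872) did not pass. Psmc3 was at 131.1 and 135.3 against 145.4 and 148.7 (log2 change -0.14, interval -0.33 to 0.04). Psmc1 was at 114.1 and 115.2 against 123.8 and 119.5 (log2 change -0.08, interval -0.27 to 0.10), and its change was 0.038 with library size only.

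The other base subunits bind ubiquitin and its carriers. Psmd1 (chr1:86064387-86139151, plus strand), a scaffold of the base, fell from 350 and 362.7 normalized counts in control to 280.9 and 272.8 in knockdown (log2 change -0.36, SE 0.08, limma adjusted p = 0.0189). Psmd2, the other large scaffold, was at 305.4 and 313.3 against 293.8 and 317.3 (log2 change 0.02, interval -0.17 to 0.21). The scaffolds stood at like levels per kilobase (101.7 for Psmd1 and 103.8 for Psmd2). The upper bound of the interval of Psmd1 was -0.18, and the difference between the 2 changes was not tested. The log2 change of Psmd2 was -0.036 without control 1 and -0.0092 after thinning. Psmd4, a ubiquitin receptor, was at 105.7 and 99.3 against 104.1 and 128.3 (limma adjusted p = 0.307), with overlapping groups.

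The lid removes ubiquitin chains before the substrate enters. Of its 8 subunits 3 fell, against 12.4% of all genes tested. Psmd6 (chr14:14112174-14120984, minus strand) was at 128.3 and 129.3 normalized counts against 152.4 and 182.4 (log2 change -0.37, SE 0.10, limma adjusted p = 0.0415). Psmd11 (chr11:80428615-80473248, plus strand) was at 133.3 and 127 against 157.9 and 166.3 (log2 change -0.31, SE 0.08, limma adjusted p = 0.0342). Psmd14 (chr2:61711694-61800376, plus strand), the deubiquitinating enzyme of the lid, was at 54.2 and 56 against 67.6 and 69 (log2 change -0.31, SE 0.09, limma adjusted p = 0.0498), with both groups tight but the adjusted p at the threshold. It passed in 7 of 18 alternative fits, the fewest of the 13. Psmd7, the partner of Psmd14 in the lid, was at 231.9 and 226.7 against 259.4 and 272 (limma adjusted p = 0.0873), and Psmd13 was at 118.7 and 104.3 against 125.1 and 150 (limma adjusted p = 0.103). Psmd12 was at 180 and 188.7 against 192 and 213.6 (log2 change -0.14, interval -0.34 to 0.07). Psmd3 was at 294.7 and 293.7 against 290.2 and 357.5, so that its difference came from control 2 alone, and its change was 0.020 without that library. Psmd8 was the 1 lid subunit with both knockdown libraries above both controls, at 212.8 and 205.2 against 201.1 and 198.7 (log2 change 0.06, interval -0.12 to 0.24, limma adjusted p = 0.577).

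None of the 4 activators or the inhibitor passed in limma (1 of the 5, Psmf1, had an unadjusted p below 0.05) and none in edgeR or DESeq2. Psme1 and Psme2, which form the activator PA28 that interferon induces, were at 32.2 and 31.7 against 30.8 and 31 and at 5.5 and 6.39 against 5.37 and 5.66 normalized counts. Their log2 changes were 0.05 (interval -0.21 to 0.31) and 0.09 (interval -0.36 to 0.54). With the GC trend removed that of Psme1 was -0.034, and without knockdown 2 that of Psme2 was -0.0019. Psme3, the nuclear activator PA28 gamma, was at 273.6 and 276.4 against 273.7 and 321.5 (log2 change -0.11, interval -0.34 to 0.12); leaving out control 2 made it 0.0067, and library size alone 0.014. Psme4, the activator PA200, was at 267.9 and 250.9 against 283.7 and 288.7 (log2 change -0.14, interval -0.33 to 0.04). Psmf1, the inhibitor PI31, was at 49.6 and 50.5 against 44.7 and 34.6 (log2 change 0.34, interval 0.02 to 0.66, limma adjusted p = 0.112). It had the largest upward change of any member tested, and control 2 was well below control 1. Without control 1, which lay nearer to the knockdown libraries, the log2 change of Psmf1 was 0.52. That fit kept control 2 as the lone control library.

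Of the 7 assembly factors 3 fell and 0 rose in limma, against 12.4% and 10.5% of all genes tested. The 3 smallest p-values among all members were theirs. Psmg1 (chr16:95979933-95990960, minus strand) pairs with Psmg2 as a chaperone of the alpha ring. It was at 56.9 and 54.4 normalized counts against 76.4 and 88 (log2 change -0.55, SE 0.10, limma adjusted p = 0.0136). Psmg2 was at 29.7 and 24.1 against 33.4 and 27.8 (log2 change -0.18, interval -0.54 to 0.18), with overlapping groups. Psmg3 (chr5:139823592-139826885, minus strand) and Psmg4 form the other chaperone pair of the alpha ring. Psmg3 fell, at 15.1 and 14.1 against 23.3 and 25.6 (log2 change -0.71, SE 0.14, limma adjusted p = 0.0149). Psmg4 was at 29.8 and 28.3 against 20.2 and 26 (log2 change 0.33, interval -0.03 to 0.68, limma adjusted p = 0.153), higher in both knockdown libraries but not passed. Without control 2, which lay nearer to the knockdown libraries, the log2 change of Psmg4 was 0.50. That fit kept control 1 as the lone control library.

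Psmd5, Psmd9 and Psmd10 are chaperones of the ATPase ring and leave the finished cap. Psmd5 (chr2:34849734-34874968, minus strand) was at 86.1 and 73.7 normalized counts against 112.2 and 121.7 and fell (log2 change -0.55, SE 0.10, limma adjusted p = 0.0143). Psmd10, known as gankyrin, was at 30.5 and 27.2 against 34.2 and 29.9 (log2 change -0.15, interval -0.45 to 0.16), and Psmd9 at 31.7 and 31.8 against 29.9 and 39.1 (log2 change -0.11, interval -0.45 to 0.24). Both had overlapping groups, and that of Psmd9 became 0.084 without control 2 and 0.015 under library size alone.

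Compared by part, 4 of 15 core members tested fell (26.7%), 6 of 17 cap subunits (35.3%) and 3 of 12 activators, inhibitor and assembly factors (25.0%), against 12.4% of all genes. Their median log2 changes were -0.25, -0.29 and -0.13. Both knockdown libraries were below both controls for 10 of 15 (66.7%), 13 of 17 (76.5%) and 4 of 12 (33.3%). Against 34.6% of all genes, the last share is at the background. The activators and inhibitor alone had a median of 0.05 and the assembly factors of -0.18. The differences between the parts were not tested.

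Subunits of a ring are present in equal number, but their transcript levels per kilobase differed widely. Each level was divided by the length of 1 annotated transcript, 2846 bases for Psma3, 1239 for Psma5 and 914 for Psma7. Whether these forms are the ones present in the cells was not tested, and a shorter form would raise the level. In the alpha ring the mean over the 4 libraries ran from 5.58 (Psma3) and 5.62 (Psma5) normalized counts per kilobase to 245.2 (Psma7), with a median of 47.2. In the beta ring Psmb5 stood at 0.181, the next lowest was Psmb1 at 80.1, and the highest was Psmb6 at 239.9. The value of Psmb5 rests on 3 and 4 reads in knockdown and 1 and 0 in control. Of its 100-base windows, 24.9% were found in another gene. Whether so few reads reflect the transcript or the way reads were counted was not tested, so this is not a measured low expression. The ATPases were closer together, from 30.4 (Psmc6) to 95.6 (Psmc5), and the lid ran from 40.1 (Psmd14) to 156.5 (Psmd7). Among the activators Psme2 was lowest at 5.96 and Psme3 highest at 107.5. The assembly factors were between 12.8 (Psmd9) and 66 (Psmg1).

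**Figure D3:**
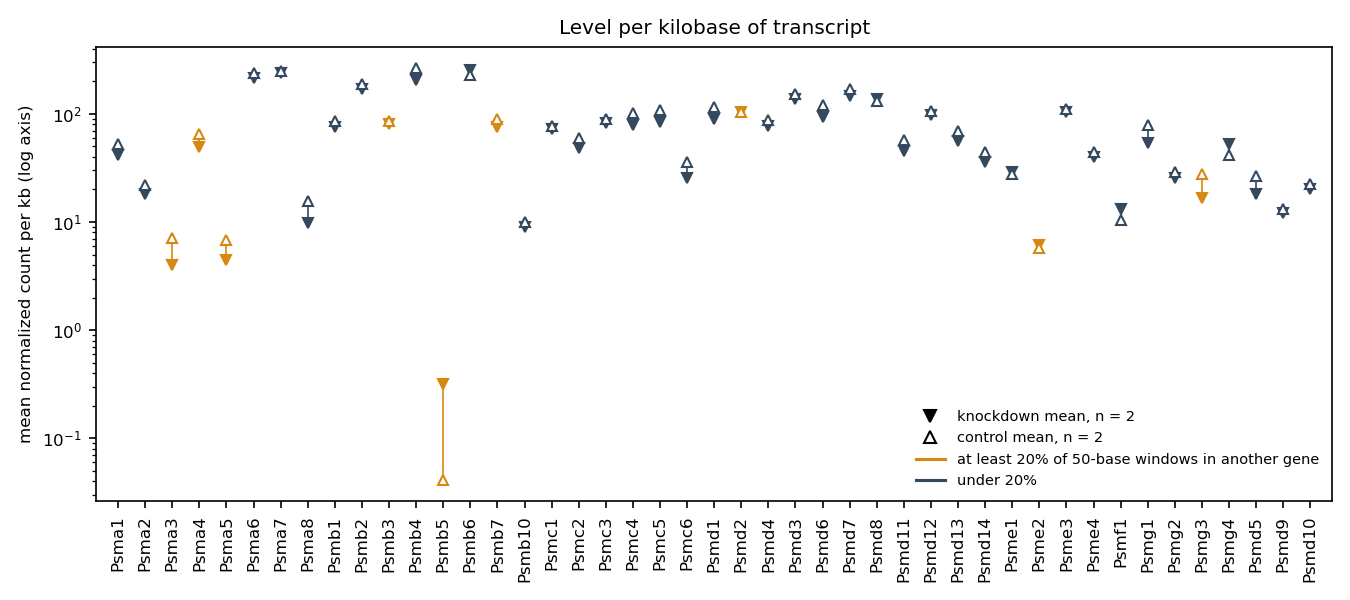
Mean normalized count per kilobase of transcript (log axis) in the libraries labelled knockdown (filled triangles) and control (open triangles), n = 2 each, for 45 members (Psmb11, at 1 read in all, is left out). Orange marks the 9 members with at least 20% of their 50-base windows in another annotated gene, among them Psma3 and Psma5, the lowest of the alpha ring, Psmb5 and Psme2.

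Some members, low ones among them, hold sequence that other genes also hold. For each member, all 50-base windows of its principal coding transcript were looked for in the GENCODE M21 transcripts of every other gene, pseudogenes included. Only exact matches on either strand counted. Near-identical sequence was thus missed, and the shares, those of 0% included, are lower bounds. At least 20% of the windows were found elsewhere for 9 members: Psma3 (22%), Psma4 (31.5%), Psma5 (55.4%), Psmb3 (55.8%), Psmb5 (57.1%), Psmb7 (28.1%), Psmd2 (26.4%), Psme2 (59.3%) and Psmg3 (22.7%). Psmd11 lay just under that threshold at 18.9%. Reads were 100 bases long, and fewer windows of that length were shared. Their shares were 20.6% for Psma3, 27.5% for Psma5, 24.9% for Psmb5 and 44.5% for Psme2. They were 9.19% for Psma4, 18.0% for Psmb3, 19.98% for Psmb7, 7.48% for Psmd2 and 17.7% for Psmg3. In Psmb7 and Psmg3, windows of 100 bases were shared only with Nek6 and Gm26938, whose exons overlap theirs at the same locus. Nek6 overlaps 11.8% of the exon bases of Psmb7 on the opposite strand. Gm26938 overlaps 9.68% of those of Psmg3 on the same strand. The median level per kilobase was 22.1 for the 9 and 66 for the other 37. Across the 46 members the Spearman correlation of the shared share with the level per kilobase was -0.37, given as a description. Psmb3, with 55.8%, stood at 82.9 per kilobase, so a high share did not always go with a low level. Nor did a low level always go with a high share: Psmb10 (9.58 per kilobase), Psmf1 (11.8) and Psma8 (12.8) shared 0% of their windows, and Psmd9 (12.8) shared 0.667%. Reads that lie within shared sequence cannot be assigned to 1 gene, so the levels and changes of the 9 members are uncertain.

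Some of the genes that share these windows carried more reads than the member. Nek6 did not, with a mean of 35.4 normalized counts over the 4 libraries, against 95.7 for Psmb7. Reads within shared sequence make the levels and changes of these genes as uncertain as those of the members. Gm8394, which shares sequence with Psma5, was at 65.3 and 62 normalized counts in the knockdown-labelled libraries and 90.3 and 88.5 in the control-labelled ones, far above Psma5 itself. It fell (log2 change -0.48, SE 0.09, limma adjusted p = 0.0123), and Psma5 and Gm8394 together were at 69.1 ± 3.18 against 97.8 ± 2.04 (SD, n = 2). Gm6542, which shares sequence with Psma4, fell as well (146.2 and 136.4 against 198.9 and 199.1, log2 change -0.49, limma adjusted p = 0.00938), and with Psma4 it summed to 198.8 ± 11 against 274.4 ± 9.35. Gm13835, which shares sequence with Psma3, was at 122.4 and 124.6 against 151.1 and 137.6 and did not pass (log2 change -0.22, limma adjusted p = 0.102). Psma3 and Gm13835 together were at 135 ± 2.16 against 164.6 ± 6.57, which is 18% lower, where Psma3 alone was 43.5% lower.

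For 2 other pairs the sum was nearly level or higher. Gm5422, which shares sequence with Psmd2, was at 334.1 and 341.9 against 331.3 and 353.9 (log2 change -0.02), and the pair differed by -0.125% between the group means. Psme2b was at 72.8 and 66.9 against 57.9 and 53.9 (log2 change 0.32, interval 0.08 to 0.55, limma adjusted p = 0.0572), more than Psme2 itself in every library. A730017L22Rik, which shares sequence with Psmd11, was at 140.5 and 140.8 against 174.6 and 168.1 and fell (limma adjusted p = 0.0403). With the 9 members left out, a choice made after the data were seen, 11 of 36 members tested fell and 0 rose. Over all genes tested, 12.4% fell and 10.5% rose. The median log2 change of the 36 was -0.17.

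**Figure D4:**
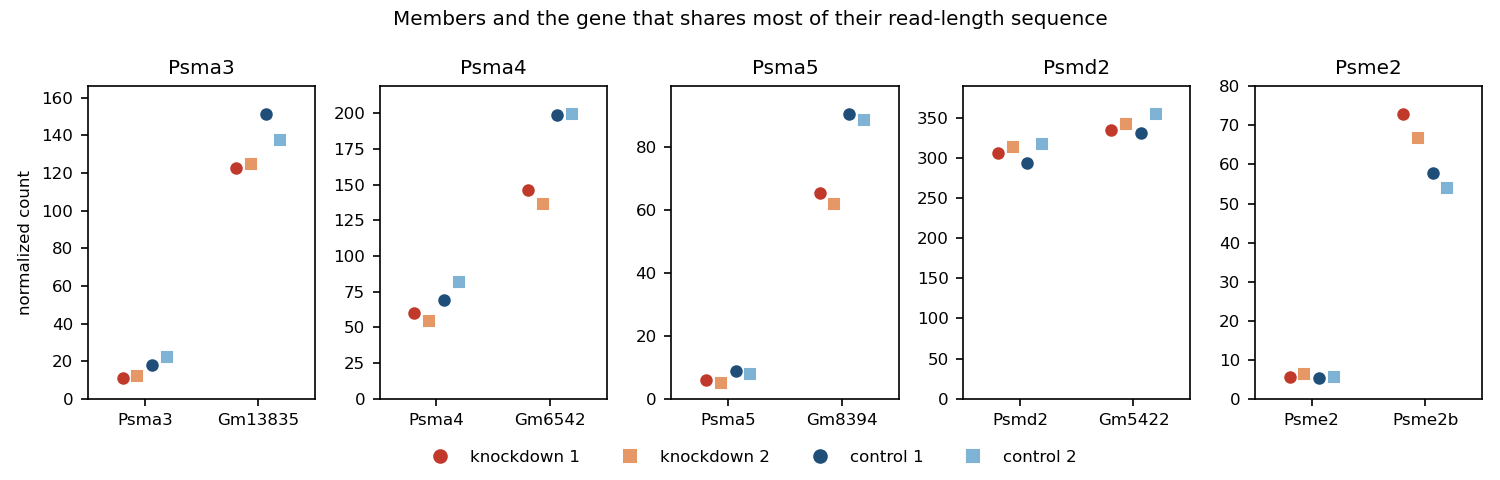
Normalized counts (linear axis from 0, a scale for each panel) of 5 members and of the gene that shares the most 100-base windows with each, in each of the 4 libraries. Gm8394 and Gm6542 lie lower in both knockdown libraries, as do Psma5 and Psma4, while Psme2b lies higher and Psmd2 and Gm5422 overlap between the groups.

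Base composition moved with the change. The transcripts of the 13 members that fell had a median GC content of 46.9%, against 51% for the other 31 tested and 50.9% for all genes tested. Across the 44 members the Spearman correlation of GC content with the log2 change was 0.42, given as a description, and across all 14890 genes it was 0.27. Psmc6 had the lowest GC content of the cap subunits, 37%, while Psmg3 fell at 56.3%. With the trend of each library on GC content removed, 8 members fell and 0 rose in limma, against 11.7% of all genes that fell, and the median of the members was -0.19.

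Other genes of the pathway were taken from 4 lists of partners, of which 42 genes were tested. Of these 5 fell and 1 rose, 11.9% and 2.38%, near or below the 12.4% and 10.5% of all genes, and the median log2 change was -0.12. Among the shuttles that carry ubiquitinated proteins and the segregase factors, 2 of 12 fell and 1 rose. Ubqln2 was at 112.2 and 107.7 normalized counts against 167.6 and 163.4 (log2 change -0.59, SE 0.08, limma adjusted p = 0.00596). Ubqln4 was at 312.5 and 304.6 against 433 and 466.4 (log2 change -0.54, SE 0.08, limma adjusted p = 0.00737). Both are ubiquilins, which bind ubiquitin chains and the cap. Faf2, a receptor on the endoplasmic reticulum for the segregase Vcp, rose, from 83.6 and 86.9 to 102 and 117 (log2 change 0.35, SE 0.10, limma adjusted p = 0.0406).

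Of 12 genes whose products bind the proteasome, 1 fell (8.33%, against 12.4% of all genes tested). It was Usp14, a deubiquitinating enzyme of the cap, at 132.4 and 128.9 against 165.1 and 154.8 (log2 change -0.29, SE 0.08, limma adjusted p = 0.0432). Pomp, the chaperone of the beta ring, was at 40.3 and 37.2 against 42.5 and 54.3 (log2 change -0.30, interval -0.63 to 0.02). The cap subunits Sem1 (log2 change 0.02, interval -0.18 to 0.22) and Adrm1 (log2 change 0.03, interval -0.45 to 0.52), which are not named Psm, did not pass. Of 6 genes of ubiquitin and its activating enzymes, 1 fell (16.7%, against 12.4% of all genes tested). It was the polyubiquitin gene Ubb, at 201.6 and 200.3 against 247.7 and 258.6 (log2 change -0.33, SE 0.08, limma adjusted p = 0.0247). The largest change in this list went the other way (log2 change 1.03 for 1 gene), but that gene did not pass and its groups overlapped.

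Of 12 regulators of proteasome gene transcription, 1 fell (8.33%, against 12.4% of all genes tested). It was Foxo4, a forkhead factor linked to the subunit gene Psmd11, at 103.3 and 94.5 against 134.5 and 138 (log2 change -0.46, SE 0.09, limma adjusted p = 0.0135). Whether the change of Foxo4 bears on Psmd11 was not tested. Nfe2l1, which encodes NRF1, was at 329.2 and 335.4 against 345.3 and 377 (log2 change -0.12, interval -0.31 to 0.07, limma adjusted p = 0.326). Nfe2l2, which encodes the related factor NRF2, was at 114.3 and 101.1 against 147.3 and 126.5 (log2 change -0.34, interval -0.60 to -0.09, limma adjusted p = 0.0598). Neither passed.

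Across settings, the 13 calls kept their direction in every fit. All 13 passed in edgeR and with TMM scaling, and 8 passed in DESeq2. After thinning to equal totals 7 of them passed (8.14% of all genes fell), with library size only 6 (6.69%) and without a variance trend 3 (5.80%), the last a share near that of all genes. Psma3, Psmg3 and Psmd5 each passed in 16 of 18 alternative fits, more than the other 10.

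**Figure D5:**
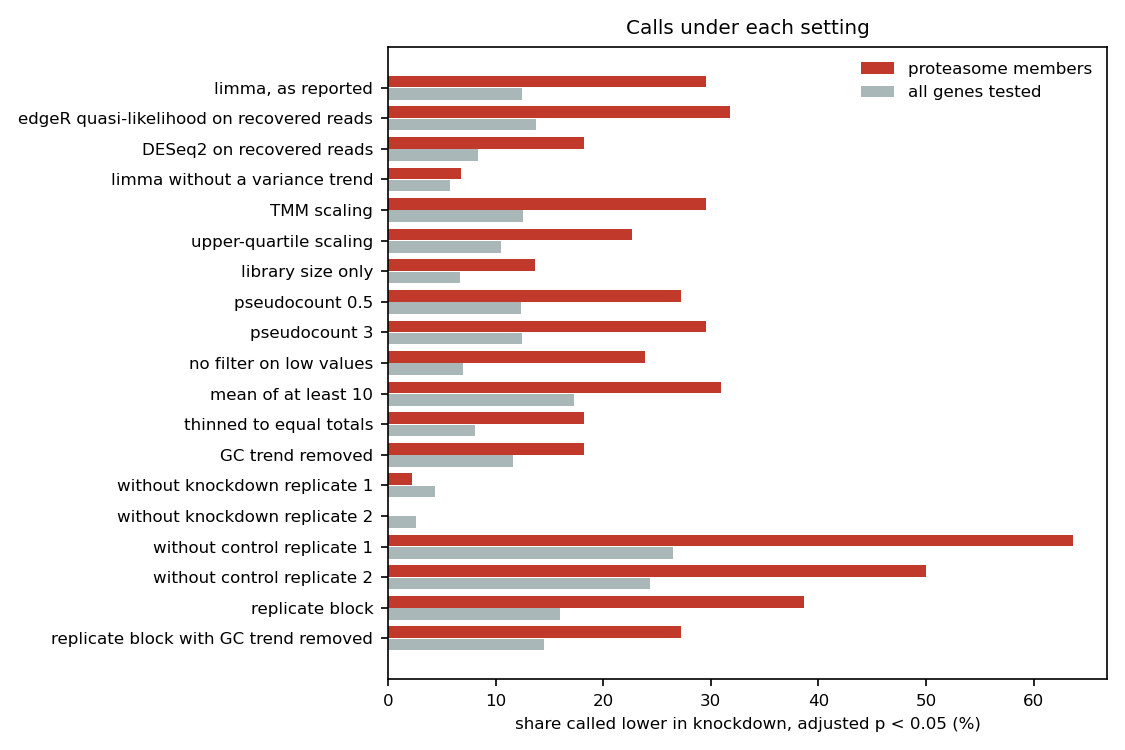
Share of the proteasome members tested (red) and of all genes tested (grey) that were called lower in the libraries labelled knockdown at an adjusted p below 0.05, in percent, under limma as reported and each alternative fit. The share of the members is above that of all genes in each fit but those without a knockdown library, where 1 and 0 members were called.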

How the data were processed

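Poly(A) RNA libraries of CCE cells (2 labelled knockdown, 2 labelled control) were analysed from 1 deposited table. The submitters' processing notes list HTSeq 0.11.2, edgeR 3.26.8, Bowtie2 2.3.4.3, SAMtools 1.9 and build mm9, without roles. For the annotation release and strand setting, nothing is given in the sources used here. The values show that the authors' deposited signal is CPM on an effective library size, since 100% of them are whole multiples of 1 read (tolerance 0.001). Beside it stand a log2 fold change, a p-value and its likelihood ratio score, per the file headers, from the authors' own comparison.

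Groups came from the titles, and columns were matched by name. Genes kept by filterByExpr (edgeR 4.0.16) on the recovered reads, 14890 in all, were tested with limma 3.58.1 in R 4.3.3 on log2(signal + 1), two-sided, with a variance trend. Fold changes of low genes are understated on this scale, and p-values were adjusted by Benjamini-Hochberg over all genes tested. Alternatives were edgeR and DESeq2 1.42.0 on the recovered reads, other scalings, filters and pseudocounts, thinning, a GC correction and fits without each library. The fit was run on simulated counts with the same dispersion in every gene and library. How it behaves under the unequal spread of the groups seen here was not tested. Members and gene lists were chosen with earlier results of these data known. The rule names every called member and up to 4 called partner genes a list, by p; other partner genes and the genes that share sequence were chosen after their values were seen. Floors cover counting error only. GENCODE M21 (GRCm38, not the authors' mm9; nothing was converted) gave lengths, GC content and coordinates for 32590 genes, and RefSeq (GRCm38.p6) the promoters. Replicates differed beyond sampling noise (chi-square per degree of freedom 1.77 in knockdown and 10.4 in control).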

Additional observations from a re-analysis of the deposited data

How the results depend on the processing

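The 13 calls rest on 2 libraries a group, and control 2 is the shallowest. Genes called over the whole table numbered 2219 in DESeq2, 1932 without a variance trend, 2030 after thinning and 653 to 7724 with 1 library left out, against 3418. Members that fell numbered 8 in DESeq2, 3 without a variance trend, 6 with library size only, 8 after thinning, 8 with the GC trend removed and 0 to 28 with 1 library left out. Members that rose numbered 1 with library size only (Psmb6) and 0 to 2 with 1 library left out. Partner genes that passed numbered 3 in DESeq2, 2 without a variance trend, 3 after thinning and 0 to 21 with 1 library left out, against 6. Library size only moved the median of all genes by 0.11 and the share of calls that were higher from 45.8% to 68.4%. It gave medians of -0.058 (members), -0.13 (core), -0.17 (cap) and -0.0025 (activators and assembly). With 1 library left out these ran from -0.26 to -0.17, -0.26 to -0.23, -0.32 to -0.17 and -0.15 to -0.061. The core median was also -0.22 with upper-quartile scaling, -0.17 with no filter, -0.21 with a mean of at least 10, -0.22 after thinning, -0.21 with the GC trend removed and -0.17 without the members that share sequence. That of activators and assembly was -0.054 with the GC trend removed. Eif4a2 stayed at 0.80 without a variance trend but did not pass. The cause of these shifts was not tested.

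The library numbers share only a number (correlation of deviations 0.036), and with the replicate block 17 members fell, against 16.0% of all genes, and 1, Psmf1, rose. With the replicate block and the GC trend removed, 1 member rose, 10 partner genes passed, and the medians were -0.21 (core) and -0.054 (activators and assembly).

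Log2 changes of 10 members that did not pass turned in sign. With library size only these were Psma7 (0.062), Psmb3 (0.031), Psmc1 (0.038), Psme3 (0.014) and Psmd9 (0.015). With 1 library left out, the log2 change ran over -0.13 to 0.0062 for Psma7, -0.27 to 0.017 for Psmb2, -0.036 to 0.074 for Psmd2, -0.28 to 0.020 for Psmd3, -0.0019 to 0.18 for Psme2, -0.22 to 0.0067 for Psme3 and -0.29 to 0.084 for Psmd9. Psmd2 was at -0.0092 after thinning, and Psme1 at -0.034 with the GC trend removed, with or without the replicate block.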

Other observations

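Psmb8, the inducible catalytic subunit of the immunoproteasome that the choice of members left out, had 11 and 28 reads in the knockdown-labelled libraries and 1 and 1 in the control-labelled ones. The ratio of its summed, depth-scaled reads was 14.6, given as a description that rests on 1 read in each control-labelled library. The knockdown-labelled libraries also differed from each other, at 0.977 and 2.18 normalized counts. The control reads lie under the floor of 3 reads a library, so the gene passed the filter on low counts only through the knockdown-labelled libraries. It was also chosen after its values were seen, and no test of it is given.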
